A study of Drosophila melanogaster with 23 samples.

Results

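Obp19d (Entrez 33040, locus tag Dmel_CG1668), an odorant-binding protein gene on the X chromosome, was 1 of 6101 features on spotted cDNA arrays that compared adult males of 8 strains of Drosophila melanogaster. The feature was chosen by its gene symbol in the platform annotation, which names Obp19d on 1 feature alone and on no feature together with other genes. Of the strains, 4 carry Zimbabwe in their names (Zimbabwe53, Zimbabwe2, Zimbabwe30 and Zimbabwe29), and the other 4 were Oregon R, Hikone R, Canton S and St Louis. The labels name no treatment. All strains were reared at 25 °C, and males were aged for 3 to 4 days away from females. The labels give 1 RNA pool per strain, made by combining extractions of 8 to 12 flies each, so a strain is represented by a single pool and its arrays are technical repeats. All errors and p-values of strains and strain pairs therefore cover the spread between arrays and not that between flies.

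Odorant-binding proteins are small secreted proteins that support cells release into the fluid around the sensory neurons of smell and taste hairs, where they bind small, mostly hydrophobic molecules. Obp19d, also known as Pbprp2, is known from the antenna and from taste organs. It lies in a cluster with Obp19a, Obp19b and Obp19c, which in the gene table directly precede it on the X. None of these neighbours has a feature named here, and Obp19d is the only 1 of 51 Obp genes in the gene table that could be followed. The RNA came from whole males, and in such bulk samples fewer cells of a type and less RNA per cell cannot be told apart. The values are ratios without levels, so the label of adult males could not be checked against marker genes.

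Of the 23 arrays, 21 carried different strains in their 2 channels and 2 carried 1 strain in both. Each deposited value is a log ratio between channels, read here as log10, changed to log2 and centred on its array's median. The labels do not state which channel was divided by which. A positive difference below means only that the deposited ratio was positive with the first-named strain in channel 1. Whether that strain had more or less Obp19d mRNA is not known, so strains are placed at a positive and a negative end and folds are given as sizes. An array held values for 3272 to 4987 features, and Obp19d was measured on all 23. Without spot intensities, how bright the Obp19d spot was on an array is unknown, and precision is set by how many arrays a strain has.

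Oregon R stood apart from the other 7 strains in Obp19d. On its arrays against Canton S, the log2 ratio of Obp19d was 0.57 with Oregon R in channel 1 and 1.03, with the sign turned, with Oregon R in channel 2. Against Zimbabwe53 it was 0.53 with Oregon R in channel 1 and 0.95 with Oregon R in channel 2. The single array of Oregon R and Zimbabwe2 gave 0.82. All 5 Oregon R arrays thus lay on the same side for Oregon R, between 0.53 and 1.03, with a median of 0.82. On each of these arrays Obp19d was among the more extreme features: 89.6% to 98.6% of the features measured on the array had a smaller ratio in size.

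The remaining 16 arrays held smaller ratios, with 1 overlap. Turned so that the strain nearer Oregon R comes first, they ran from -0.08 to 0.66, with a median of 0.21, and 12 of the 16 were positive. This turning follows the order of levels fitted to the same arrays, so the positive majority is no result of its own. The overlap came from Zimbabwe53 and Canton S, whose arrays gave 0.66 and 0.18 for Zimbabwe53. Hikone R minus Canton S was 0.29 and 0.53, and Hikone R minus Zimbabwe29 was 0.31 on 1 array. Both arrays of Hikone R and Canton S and the array of Hikone R and Zimbabwe29 placed Hikone R on the Oregon R side of its partners. Zimbabwe53 minus Zimbabwe30 was 0.31 and 0.25, and Zimbabwe53 minus St Louis was 0.16 and 0.37.

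The other arrays held small ratios. Canton S minus Zimbabwe30 was 0.05 and 0.16, and Canton S minus Zimbabwe29 was -0.0067 and 0.24. The single arrays gave -0.08 for Zimbabwe53 minus Zimbabwe2, -0.04 for Zimbabwe2 minus Canton S and -0.03 for Zimbabwe30 minus St Louis. These 3 single arrays and 1 array of Canton S and Zimbabwe29 are the ones below 0. The array percentile of Obp19d on the 16 arrays ran from 2.66% to 88.2%, with a median of 49.8%.

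The arrays with 1 strain in both channels show the ratio of Obp19d without a strain difference. It was -0.12 for Canton S against itself and 0.11 for Zimbabwe53 against itself. Both values were smaller than 1 SD of all features on their arrays, 0.17 and 0.14. All 5 Oregon R ratios were larger in size than either. Many ratios of the other strains were too, such as 0.29 and 0.53 for Hikone R minus Canton S. Others were smaller, such as 0.05 on an array of Canton S and Zimbabwe30.

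**Figure D1:**
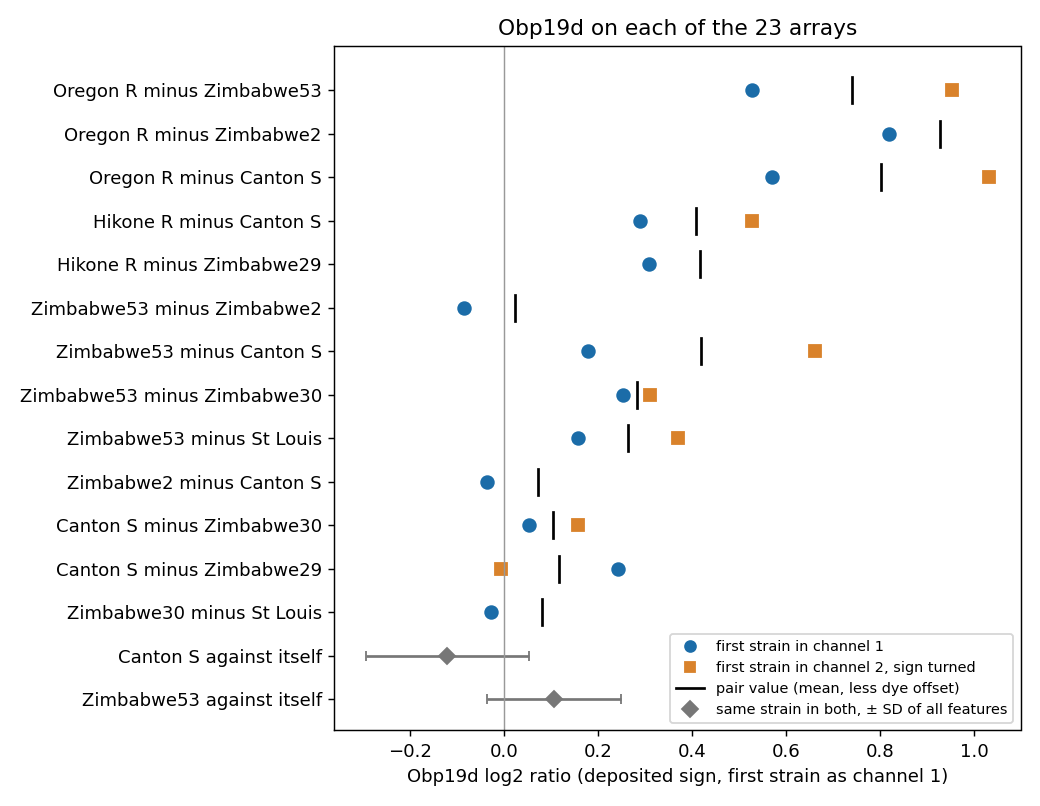
Log2 ratio of Obp19d (x axis, deposited sign with the first-named strain as channel 1) on each array, by strain pair (y axis). Circles have the first strain in channel 1, squares in channel 2 with the sign turned, black bars are pair values after the dye offset, and diamonds are the arrays of 1 strain in both channels with the SD of all features; the Oregon R arrays lie between 0.53 and 1.03 and the other arrays between -0.08 and 0.66.

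In 8 strain pairs the arrays were run with the channels exchanged, which separates a strain difference from a dye effect. In 7 of the 8 pairs the centred Obp19d ratio changed sign when the channels were exchanged. The exception was Canton S and Zimbabwe29, where both arrays were positive before turning, at 0.24 with Canton S in channel 1 and 0.0067 with Zimbabwe29 in channel 1. The mean of the 2 arrays before turning, which estimates the dye offset, was -0.11 over the 8 pairs (SD 0.12, n = 8 pairs). It was below 0 in 7 of them. Of all fitted features, 65.4% had a smaller dye offset in size. The offset was -0.24 in the 2 pairs whose array titles both start with C and -0.04 in the 4 pairs whose titles both start with E. The labels do not explain these title prefixes. The 2 arrays of 1 strain in both channels also have prefix C, and Obp19d lay on opposite sides on them, at -0.12 and 0.11.

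The first test asked whether Obp19d differed among the 8 strains. Arrays of 1 pair were averaged after the dye offset was subtracted, and the 8 strain levels were fitted to the resulting 13 pair values. Obp19d differed among strains in limma's moderated F test (adjusted p = 4.6e-05), with 2.01-fold between Oregon R and Zimbabwe29, the extreme strains. The same test called 45.2% of all 4841 fitted features, and 38.5% of 1409 named genes counted once, so passing it does not set Obp19d apart. Its range among strains, 1.01 on the log2 scale, ranked 72 among the 543 named genes past the test. If the deposited values were log2 and not log10, the same difference would be 1.23-fold.

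The order of fitted levels, as deviation from the mean of the 8 strains, began with Oregon R at 0.74 ± 0.07 (SE, 5 arrays). Hikone R followed at 0.20 ± 0.10 (3 arrays), Zimbabwe53 at 0.06 ± 0.06 (9 arrays) and Zimbabwe2 at -0.09 ± 0.09 (3 arrays). Canton S lay at -0.18 ± 0.05 (11 arrays), Zimbabwe30 at -0.23 ± 0.07 (5 arrays), St Louis at -0.24 ± 0.10 (3 arrays) and Zimbabwe29 at -0.27 ± 0.10 (3 arrays).

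**Figure D2:**
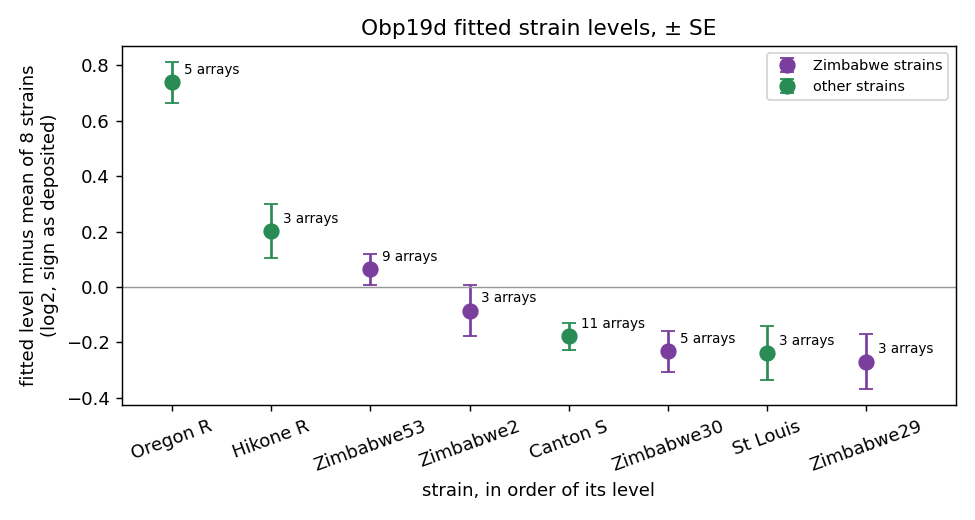
Fitted Obp19d level of each strain minus the mean of the 8 strains (y axis, log2, sign as deposited), with strains in order of level (x axis) and bars of ± 1 SE. Oregon R lies at 0.74, and the other 7 strains lie between -0.27 and 0.20.

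Each strain was then set against the mean of the other 7. Oregon R differed by 0.84 ± 0.08 on the log2 scale, or 1.80-fold (SE; adjusted p = 1.2e-05 in limma). This contrast called 12.4% of features, and 98.3% of all features had a smaller Oregon R difference in size than Obp19d. Canton S differed on the opposite side by a small amount, -0.20 ± 0.05 or 1.15-fold (adjusted p = 0.0175), in a contrast that called 19.0% of features. For every strain but Oregon R, the mean of the other 7 includes Oregon R, which moves these differences toward the negative end. With the Oregon R arrays left out, Canton S lay at -0.10 and Zimbabwe30 at -0.13 from the mean of 7 strains, values that were not tested. The Canton S call was lost when replicate 2 of the Canton S and Zimbabwe53 pair was left out (adjusted p = 0.0521), or replicate 1 of the Canton S and Zimbabwe29 pair (adjusted p = 0.0637). It was also lost on the arrays of title prefix E alone (adjusted p = 0.26).

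The other 6 strains did not pass this test for Obp19d. Zimbabwe30 came closest, at -0.27 ± 0.08 (adjusted p = 0.0571, with 11.9% of features called), and it passed without any 1 of 3 arrays: replicate 1 of Canton S and Zimbabwe53 (adjusted p = 0.0131), replicate 2 of Canton S and Oregon R (adjusted p = 0.0345) or replicate 2 of Canton S and Zimbabwe29 (adjusted p = 0.0403). Zimbabwe29 lay at -0.31 ± 0.11 (adjusted p = 0.111, 8.92% called) and St Louis at -0.27 ± 0.11 (adjusted p = 0.195, 6.22% called). Hikone R lay at 0.23 ± 0.11 (adjusted p = 0.218, 10.9% called). Zimbabwe2 lay at -0.10 ± 0.11 (adjusted p = 0.701, 6.49% called) and Zimbabwe53 at 0.07 ± 0.06 (adjusted p = 0.434, 26.2% called).

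All 28 contrasts between 2 strains were taken from the same fit, with p-values adjusted over all features within a contrast. Obp19d was called in 12 of the 28, whereas 11.9% of all features and contrasts together were called. All 7 contrasts with Oregon R were among the 12, against 11.3% of features over these 7 contrasts. They all rest on the same fitted Oregon R level, so they are not separate results. Oregon R minus Zimbabwe29 was 1.01 ± 0.14, Oregon R minus St Louis 0.98 ± 0.13 and Oregon R minus Zimbabwe30 0.97 ± 0.11. These pairs shared no array, so their differences were built through intermediate strains. Oregon R minus Canton S was 0.92 ± 0.09, or 1.89-fold, and Oregon R minus Zimbabwe2 was 0.82 ± 0.11. Oregon R minus Zimbabwe53 was 0.68 ± 0.09. The highest adjusted p of these 6 contrasts was 0.000395.

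Oregon R and Hikone R, which also shared no array, were the nearest of the 7 and differed by 0.54 ± 0.14, or 1.45-fold (adjusted p = 0.0269; 95% interval 0.24 to 0.83). This call was the least firm of those with Oregon R. It was lost without any 1 of 5 arrays, with adjusted p between 0.0558 and 0.0756. These were replicate 2 of Canton S and Zimbabwe53, replicate 1 of Canton S and Oregon R, replicate 1 of Canton S and Hikone R, and the single arrays of Hikone R and Zimbabwe29 and of Oregon R and Zimbabwe2. The size of the difference stayed between 0.48 and 0.63 whichever array was left out.

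The other 5 called contrasts were smaller, between 1.18-fold and 1.39-fold. Hikone R minus Zimbabwe29 was 0.47 ± 0.12 (adjusted p = 0.0185) and Hikone R minus Canton S 0.38 ± 0.10 (adjusted p = 0.023). Zimbabwe53 minus Zimbabwe30 was 0.30 ± 0.09 (adjusted p = 0.0323), Zimbabwe53 minus Canton S 0.24 ± 0.08 (adjusted p = 0.0402) and Zimbabwe53 minus St Louis 0.30 ± 0.10 (adjusted p = 0.0462). So Hikone R and Zimbabwe53 each lay toward the Oregon R end relative to some strains. These calls lay near the threshold, and many were lost while the difference changed little. The Hikone R contrasts were lost without any 1 of 2 arrays against Zimbabwe29 (highest adjusted p = 0.122) and of 3 arrays against Canton S (highest adjusted p = 0.11). The Zimbabwe53 contrasts were lost without any 1 of 5 arrays against Zimbabwe30, 10 against Canton S and 13 against St Louis, of 21 arrays left out in turn (highest adjusted p = 0.105, 0.177 and 0.192). The size of Zimbabwe53 minus Zimbabwe30 stayed between 0.26 and 0.33, of Zimbabwe53 minus St Louis between 0.26 and 0.32, and of Zimbabwe53 minus Canton S between 0.15 and 0.28. All 3 Zimbabwe53 calls were also lost without centring (adjusted p = 0.0563, 0.101 and 0.0815 against Zimbabwe30, St Louis and Canton S), with equal weights (0.0713, 0.0541 and 0.0853) and on the E arrays alone (0.163, 0.052 and 0.567). Without a dye offset those against St Louis (adjusted p = 0.0919) and Canton S (adjusted p = 0.0695) were lost.

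Neighbours in the order of levels, from Hikone R to Zimbabwe29, did not differ beyond their spread. Their differences were 0.14 for Hikone R minus Zimbabwe53, 0.15 for Zimbabwe53 minus Zimbabwe2, 0.09 for Zimbabwe2 minus Canton S, 0.05 for Canton S minus Zimbabwe30, 0.0056 for Zimbabwe30 minus St Louis and 0.03 for St Louis minus Zimbabwe29. Adjusted p-values of these 6 steps ran from 0.511 to 0.988. The 95% interval of the smallest step, Zimbabwe30 minus St Louis, still reached from -0.24 to 0.25. Among all 16 contrasts not called, the largest estimate was 0.44, for Hikone R minus St Louis, with an interval of 0.09 to 0.79 before adjustment.

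Whether the other 7 strains differed among themselves was tested after the values had been seen. The F test over these 7 strains in the same fit gave an adjusted p of 0.00924, with a range of 1.39-fold between Hikone R and Zimbabwe29. It called 44.9% of all features. With all 5 Oregon R arrays left out, the range was 0.45 on the log2 scale, between Hikone R and Zimbabwe29, and the adjusted p was 0.0212.

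The network of pairs allows each pair measured directly to be set beside the value that the other 12 pairs give through intermediate strains. For Oregon R minus Canton S the direct value was 0.80 and the indirect one 1.05. For Oregon R minus Zimbabwe53 they were 0.74 and 0.60, and for Oregon R minus Zimbabwe2 they were 0.93 and 0.75. Direct and indirect values thus placed Oregon R on the same side in all 3 pairs. Over the 13 pairs the median gap was 0.13, and 11 pairs kept their side. The widest gap was 0.31, for Zimbabwe53 minus Canton S, with 0.42 measured directly and 0.11 indirectly. The pairs that changed side were Canton S and Zimbabwe30 (0.10 and -0.01) and Zimbabwe30 and St Louis (0.08 and -0.05), both close to 0. Direct values were taken after the dye offset was subtracted, and on some single arrays this set their sign. Zimbabwe53 minus Zimbabwe2 went from -0.08 to 0.02, Zimbabwe2 minus Canton S from -0.04 to 0.07 and Zimbabwe30 minus St Louis from -0.03 to 0.08. The sides of these pairs therefore rest on the offset. The residual SD of Obp19d in the fit was 0.16, and 35.7% of the fitted features had a smaller one.

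**Figure D3:**
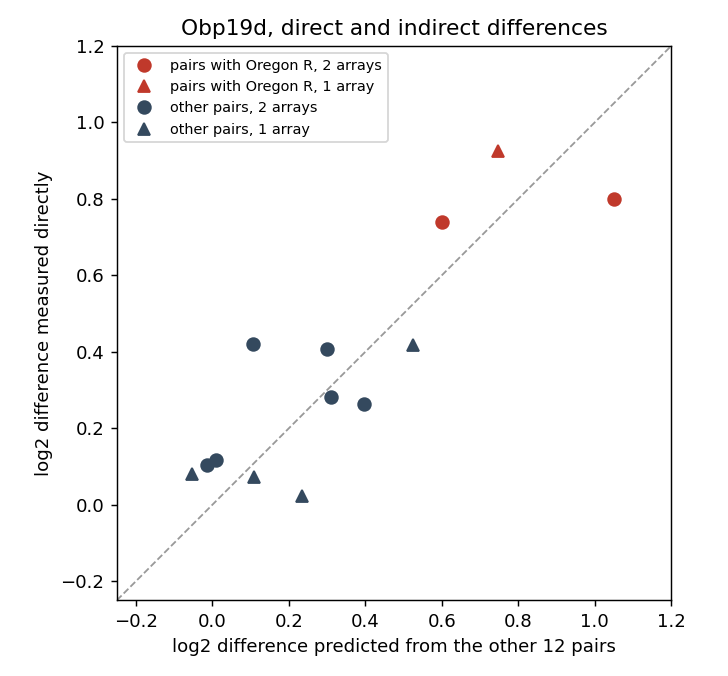
Obp19d difference of each of the 13 strain pairs measured on its own arrays (y axis, log2) against the difference predicted from the other 12 pairs (x axis, log2). The dye offset was subtracted from all values and was not estimated anew when a pair was left out. The dashed line marks equal values; the 3 Oregon R pairs are farthest along both axes, with direct values between 0.74 and 0.93.

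The arrays fall into 6 with title prefix C and 15 with prefix E, and both held Oregon R. On the C arrays alone, fitted with a dye term, Oregon R minus Canton S was 0.88 and Oregon R minus Zimbabwe53 was 0.53, from 3 Oregon R arrays. On the E arrays alone these differences were 0.83 and 0.68, from 2 Oregon R arrays. The Oregon R difference from the other 7 strains was 0.80 on the E arrays (adjusted p = 0.00429 in limma). The C arrays hold too few strains to give this value. With both prefixes fitted together and a dye term for each, the Oregon R difference was 0.80 (adjusted p = 1.2e-06 in limma). The E arrays called 9 of the 28 contrasts for Obp19d and 6 of the 7 with Oregon R. The exception was Oregon R and Hikone R (adjusted p = 0.294).

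The names of the strains give 1 further grouping, that of the 4 Zimbabwe strains against the 4 others. The Obp19d levels averaged -0.13 ± 0.15 in Zimbabwe strains and 0.13 ± 0.45 in the others (SD, n = 4 strains each). The levels overlapped: they ran from -0.27 to 0.06 in Zimbabwe strains and from -0.24 to 0.74 in the others. The difference of -0.26 ± 0.20 (SE) did not pass in limma (adjusted p = 0.683), where 0.248% of features did, nor in a two-sided exact permutation of origin over the 8 levels (p = 0.343; the smallest p that the 70 arrangements allow is 0.0286). Without Oregon R the other strains averaged -0.07, and the difference was -0.06.

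The chemosensory list added little, because few of its genes could be followed. Besides Obp19d it held Galphaq, a G protein subunit best known from photoreceptors, and rdgB, a phosphatidylinositol transfer protein, whose feature had no value on any array of different strains. Galphaq has 2 features, which differed 1.47-fold and 1.99-fold among strains (adjusted p = 0.00464 and 0.0101 in the F test). Its Oregon R difference was 0.23 ± 0.09 (adjusted p = 0.129) on the first and 0.09 ± 0.15 (adjusted p = 0.761) on the second. Over the 8 strains the levels of these features correlated with those of Obp19d with r = 0.40 and r = -0.01.

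Marker lists of other tissues were counted beside Obp19d, since whole males mix many tissues. Of 22 listed eye genes, 3 could be fitted (Galphaq, rdgA and inaE), and none was called in Oregon R, where their differences ran from -0.04 to 0.23. Of 8 neuron genes, 2 could be fitted. The Oregon R difference was 0.25 ± 0.10 (adjusted p = 0.114) for nSyb, a synaptic vesicle protein, and 0.18 ± 0.10 (adjusted p = 0.299) for futsch, a microtubule-associated protein, on the side of Obp19d. Neither passed the F test (adjusted p = 0.0668 and 0.525). Over the 8 strains their levels correlated with those of Obp19d with r = 0.72 and r = 0.65, given as a description. Of 9 fat body genes only apolpp, the lipid carrier of the blood, was fitted, at 0.28 ± 0.14 (adjusted p = 0.22). Its r with Obp19d was 0.11. Among the eye genes, the features of rdgA gave r = 0.36 and r = -0.04, and inaE gave r = -0.53.

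Most of the testis genes that could be fitted differed in Oregon R on the side opposite to Obp19d. The 5 fitted genes of 16 listed all passed the F test among the 8 strains, as did 38.5% of named genes. In Oregon R 4 of them were called, where 12.4% of all features were. The marker lists were chosen with earlier results of these data known. Counts and ranges of these genes are therefore a description and no test of the list. The Oregon R difference was -0.85 ± 0.09 for Prosbeta4R2, a proteasome subunit relative, -0.59 ± 0.14 for Hsp60B, a chaperonin, -0.46 ± 0.10 for ocn and -0.40 ± 0.09 for janB, related genes whose cDNAs may share signal. For genes with several features the one with the most arrays and the smallest residual was counted. Over all their features, ocn was called on 8 of 9 and janB on 1 of 8, all below 0. Cdlc2, a dynein light chain, lay at -0.14 ± 0.09 and was not called (adjusted p = 0.307). The median range among strains of these 5 genes was 0.98, against 0.44 over all named genes fitted. The part of tissue proportions in the Obp19d difference was not tested.

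The nearest named genes on the X did not follow Obp19d. Before it in gene order were obst-A, a chitin-binding protein gene with 22 genes between, Phf7, with 43 between, and pico, with 89 between. After it were CG1812, with 11 genes between, Cbs, which makes cystathionine, with 49 between, and CG32512, with 55 between. Of the 6 genes, 3 passed the F test, a share near the 38.5% of named genes: obst-A (2.57-fold, adjusted p = 0.000496), CG1812 (1.54-fold, adjusted p = 0.000161) and Cbs (1.77-fold, adjusted p = 0.00141). Their Oregon R differences were 0.01 ± 0.11, -0.18 ± 0.08 and -0.08 ± 0.10, and none was called (adjusted p from 0.165 to 0.982). The other 3 genes lay between -0.05 and 0.12 in Oregon R and were not called either. The correlation of levels with Obp19d over the 8 strains ran from r = -0.44 for Phf7 to r = 0.46 for pico.

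Genes with strain profiles like that of Obp19d were sought among the other 542 named genes past the F test, by Pearson's r over the 8 fitted levels. The levels of all genes come from the same arrays and RNA pools, so r is given as a description. Only 3 genes reached r = 0.9: eIF3h (0.93) and eIF3m (0.91), subunits of a translation initiation factor, and Tao (0.92), a protein kinase. They were followed by fne (0.85), a neuronal RNA-binding protein, and Non1 (0.85), a nucleolar GTPase. The median r over the 542 genes was -0.02.

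Oregon R leads the profile that chose these genes, so their Oregon R differences are given as a description. The Oregon R difference was 0.76 ± 0.09 for Non1, 0.66 ± 0.09 for eIF3m, 0.44 ± 0.09 for eIF3h, 0.37 ± 0.09 for fne and 0.33 ± 0.09 for Tao, against 0.84 ± 0.08 for Obp19d. Over the other 7 strains, whose levels were also part of the choice, r was 0.91 for fne, 0.90 for Non1, 0.88 for eIF3h, 0.80 for Tao and 0.76 for eIF3m. The rank order of the 8 strains was identical in fne and Obp19d (rho = 1). The choice of these genes depended on the measure, since only 1 of the 5 was also among the 5 highest by Spearman's rho, although 4 were by r over the 13 pair values.

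The most opposite profiles were those of Snap29 (r = -0.90), a membrane fusion protein, pigs (r = -0.78), a cytoskeletal linker, and CG42268 (r = -0.77). Their Oregon R differences were -0.53 ± 0.11, -0.40 ± 0.09 and -0.33 ± 0.10, on the side that their choice favours. Over the 7 strains other than Oregon R, r was -0.67, -0.39 and -0.62.

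**Figure D4:**
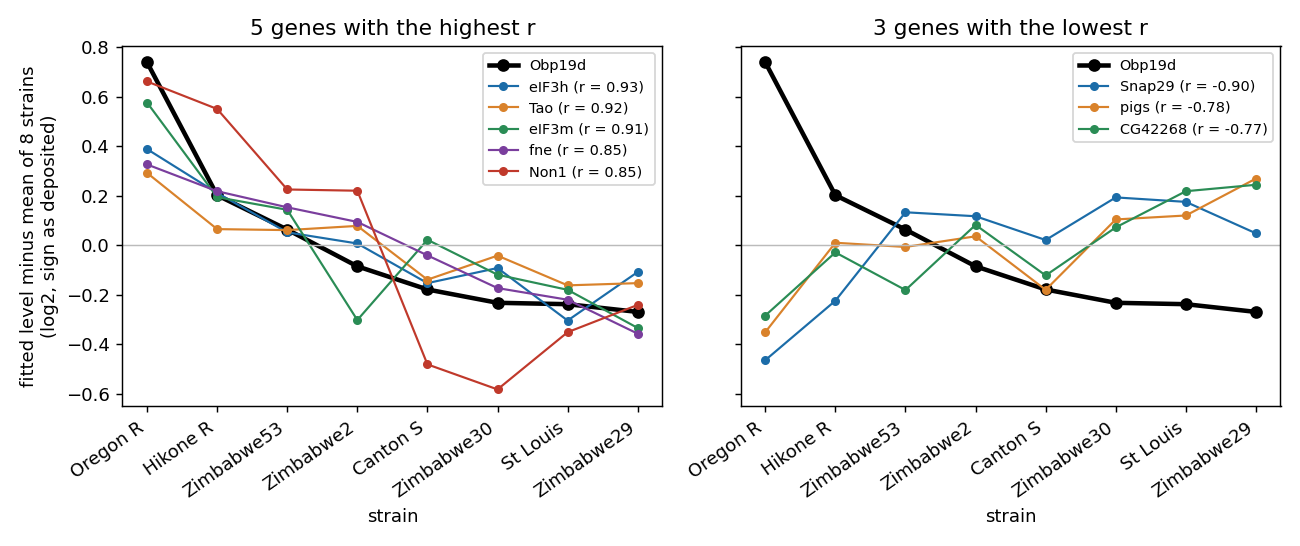
Fitted strain levels (y axis, log2 deviation from the mean of 8 strains, sign as deposited) of Obp19d, in black, with the 5 named genes of highest r (left) and the 3 of lowest r (right), over strains in the order of Obp19d (x axis). Obp19d and the 5 genes on the left all have Oregon R at their positive end, and the 3 genes on the right have it at their negative end.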

How the data were processed

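The deposited values, read here as log10, are the authors' log ratios of the 2 channels per feature on 23 two-colour cDNA arrays. Per the labels' protocols, 2 µg of poly-A RNA per strain was labelled with cyanine 3 or cyanine 5, with channels exchanged in repeats. The sources used here state neither the log base nor the numerator, nor any normalization before deposit. Base 10 was read from the values. With it the array of Canton S against itself scatters by 12.8%, which does not settle the base, so base 10 remains an assumption. Values were changed to log2 and centred on each array's median. A dye offset per feature, from the 8 exchanged pairs, was subtracted, arrays of a pair were averaged, and 8 strain levels were fitted by weighted least squares to 13 pair values. Features needed at least 10 pair values and 3 complete exchanged pairs. The squeezeVar function of limma (version 3.58.1, R 4.3.3) moderated the variances, and p-values were adjusted by Benjamini and Hochberg over 4841 features; called means an adjusted p under 0.05. Replicate numbers count the arrays of 1 strain pair in accession order. Of 6101 features, 1943 had 1 gene symbol, 67 several and 4091 none. Gene order and names came from RefSeq (Release 6); the build behind the array is not given. The named genes are Obp19d, its 5 most alike and 3 most opposite named genes past the F test, the 3 nearest fitted named genes on each side, and genes of the chemosensory and marker lists. Obp19d, these lists and the tests were chosen with earlier results of these data known. The fit was also run on simulated data with errors independent between arrays, which cannot show how it behaves when arrays are correlated.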

Additional observations from a re-analysis of the deposited data

How the results depend on the processing

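Obp19d was recomputed without each array in turn and with other centring, scaling, dye terms, weights and filters. The difference among the 8 strains passed under all 33 settings (range 0.96 to 1.17 without 1 array; adjusted p in limma from 1.7e-06 to 0.00158), as did that of Oregon R from the other 7 (0.79 to 0.91; adjusted p from 3.77e-07 to 0.00429). The difference between Zimbabwe and other strains passed under none (-0.29 to -0.24; adjusted p from 0.63 to 0.733). Between 8 and 12 strain contrasts were called without 1 array, of which 6 or 7 had Oregon R; adjusting over all 28 contrasts jointly called 10, including all 7 with Oregon R. No centring and equal weights each called 9, no dye offset 10, and centred print blocks 14. Zimbabwe30 against the other 7 strains passed with print blocks centred (-0.28, adjusted p = 0.0181), arrays scaled (-0.28, 0.0298), single arrays fitted with a dye term (-0.27, 0.0431), only features measured on all arrays (-0.27, 0.0388) and, chosen after seeing the data, only arrays of prefix E (-0.29, 0.0443), with values of -0.29 to -0.23 without 1 array. Zimbabwe29 passed with print blocks centred (-0.32, adjusted p = 0.0409). Canton S did not pass on arrays of prefix E (-0.15, adjusted p = 0.26) and ran from -0.24 to -0.16 without 1 array. The cause was not tested. With only features measured on all arrays the F test called 1081 features, against 2187, since fewer were tested. The differences of strains from the other 7, between origins, and of the contrasts named with leave-one-out values kept their direction. Contrasts near 0 need not: Zimbabwe30 and St Louis changed order in several settings. Among them were those without their shared array (-0.29 and -0.23 against the other 7), without centring (-0.28 and -0.26) and with print blocks centred (-0.28 and -0.22). Zimbabwe29 against the other 7 ran from -0.46 to -0.16 without 1 array. Without replicate 2 of Canton S and Zimbabwe29 it lay at -0.16, with Canton S at -0.24 and St Louis at -0.31. Which strain lay at the negative end thus depended on the arrays and settings used. St Louis also lay below Zimbabwe29 without replicate 1 of Canton S and Zimbabwe53 (-0.31 and -0.26). The same held with equal weights (-0.299 and -0.292) and on the arrays of prefix E (-0.30 and -0.24). Without a dye offset Zimbabwe30 lay below Zimbabwe29 (-0.29 and -0.27). The reading as log2, counted among the settings above, only rescales all values alike, so it could change sizes but no call. No paired analysis was possible because replicate numbers only count the arrays of 1 strain pair. Some arrays share a title stem, with a consensus correlation of 0.468; with the stem as a random block, Oregon R differed by 0.87 (adjusted p = 6.1e-07) and 13 contrasts were called. The number of arrays, from 3 to 11 per strain, limits the precision.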
